A study of Mus musculus with 9 samples.

Results

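The first step of the miRNA change along the epididymis was examined here, from epididymosomes of the caput to those of the corpus. All miRNAs with a mean of 10 CPM or more in at least 1 of these segments were taken, which gave 321 of the 358 miRNAs in the table. CPM are reads of a miRNA scaled to 1 common total of miRNA reads in every library, and each library is a pool of animals. Of the 321, 256 reached this level in both segments, 21 in the caput alone and 44 in the corpus alone. The members nearest to the level were miR-296-5p, with 10.05 CPM on average in the caput, and miR-134-5p, with 10.05 CPM in the corpus, and the nearest miRNAs left out were miR-140-5p (9.98 CPM in the caput) and miR-15b-3p (9.95 CPM in the corpus).

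Epididymosomes were prepared by density gradient from the luminal fluid of the caput, corpus and cauda of inbred Swiss male mice aged 8 weeks, with no treatment or mutation in any group. There were 3 small RNA libraries for each segment, and the RNA of each library was pooled from several animals, so that the spread between replicates is a spread between pools and not between mice. The fluid was released through incisions in the tissue after the vessels had been perfused to limit blood. The 3 cauda libraries entered the fits for their spread, and a change in these bulk vesicle preparations does not tell fewer vesicles of a kind from less of a miRNA per vesicle.

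MicroRNAs (miRNAs) are short RNAs that guide Argonaute proteins to messenger RNAs. Bases 2 to 8, the seed, are the main determinant of which messages are bound, so miRNAs with the same seed form a family. Sperm leave the testis transcriptionally silent and mature as they pass through the caput and then the corpus, where the epididymal epithelium releases vesicles that can carry small RNA to them.

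The libraries differed in depth and in composition. The caput libraries held 8274421 to 11306605 reads on miRNAs and the corpus libraries 1548581 to 6190324, so 10 CPM stood for 82.7 to 113 reads in the caput and 15.5 to 61.9 in the corpus. A pair of miRNAs, miR-10a-5p and miR-10b-5p, took 63.2, 71.3 and 50.5% of the reads of caput libraries 1, 2 and 3 and 50.3 to 53.2% of those of the corpus libraries. TMM factors, which scale each library by the trimmed mean of its log ratios to a reference library and so are robust to a few dominant miRNAs, were 0.753, 0.478 and 1.16 in the caput and 1.08 to 1.14 in the corpus. Caput libraries 2 and 3 thus stood apart from each other, and every comparison is given under library size and under TMM scaling. Of the 358 miRNAs, 261, 231 and 302 reached 10 CPM in the caput libraries and 293 to 297 in the corpus libraries.

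The mature sequences of 299 of the 358 miRNAs were found by name in RefSeq (GRCm38.p6). The set below is shown because relatives in it share most of their letters and yet moved differently from caput to corpus, or, for miR-196, rose together, and miR-10 is shown as the most abundant pair. Each is written from its 5' end, with the seed in capitals.
miR-146b-5p: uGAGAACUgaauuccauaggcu
miR-146a-5p: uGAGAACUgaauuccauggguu
miR-92a-3p: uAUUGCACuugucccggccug
miR-92b-3p: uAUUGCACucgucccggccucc
miR-107-3p: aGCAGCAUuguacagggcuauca
miR-103-3p: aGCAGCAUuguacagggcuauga
miR-141-3p: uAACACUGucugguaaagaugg
miR-200a-3p: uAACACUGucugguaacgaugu
miR-200b-3p: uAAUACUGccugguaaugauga
miR-200c-3p: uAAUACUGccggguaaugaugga
miR-429-3p: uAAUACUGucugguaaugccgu
miR-196a-5p: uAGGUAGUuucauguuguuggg
miR-196b-5p: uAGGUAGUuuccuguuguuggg
miR-10a-5p: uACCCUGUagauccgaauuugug
miR-10b-5p: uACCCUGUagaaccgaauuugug

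Positions are counted from 1 at the 5' end, with the base of the first miRNA named before the position and that of the second after it. miR-146b-5p and miR-146a-5p differ by A18G and C21U, miR-107-3p and miR-103-3p by C22G, miR-10a-5p and miR-10b-5p by U12A and miR-196b-5p and miR-196a-5p by C12A, all outside the seed. miR-200a-3p and miR-200b-3p differ by C4U, U9C, C17U and U22A, of which the first lies in the seed. By the same annotation miR-146b-5p lies at chr19:46342790-46342811 on the plus strand, in an intron of Mfsd13a, while miR-146a-5p lies at chr11:43374435-43374456 on the minus strand, between Atp10b and Pttg1. miR-92b-3p lies at chr3:89227126-89227147 on the minus strand, between Mtx1 and Muc1, and miR-92a-3p has a copy in an exon of Mir17hg at chr14:115044476-115044496 on the plus strand and a copy on the X chromosome at chrX:52741854-52741874 on the minus strand. miR-107-3p lies in an intron of Pank1 (chr19:34820700-34820722 on the minus strand), and miR-103-3p in introns of Pank2 and Pank3. miR-141-3p and miR-200c-3p lie together in an intron of Gm15884 (chr6:124717917-124717938 on the minus strand and chr6:124718324-124718346 on the minus strand), and miR-200a-3p, miR-200b-3p and miR-429-3p within the Ttll10 gene (chr4:156054911-156054932 on the minus strand for miR-200a-3p).

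A second set is shown because it stands for the miRNAs with the largest changes and for the X chromosome cluster that rose as a group.
miR-190a-5p: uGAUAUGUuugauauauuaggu
miR-184-3p: uGGACGGAgaacugauaagggu
miR-7033-5p: uCUCCAGGagucugaggggcagg
miR-881-3p: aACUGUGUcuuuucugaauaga
miR-465c-5p: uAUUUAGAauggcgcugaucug
miR-878-5p: uAUCUAGUuggaugucaagaca
miR-470-5p: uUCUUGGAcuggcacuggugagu
miR-9-5p: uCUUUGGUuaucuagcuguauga
miR-192-5p: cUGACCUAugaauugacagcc
miR-671-3p: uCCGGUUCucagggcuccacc

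miR-881-3p (chrX:66801954-66801975 on the minus strand), miR-465c-5p (first of 2 copies, chrX:66826004-66826025 on the minus strand), miR-878-5p (chrX:66801554-66801575 on the minus strand) and miR-470-5p (chrX:66813995-66814017 on the minus strand) lie between Slitrk2 and Gm1140, in no annotated host gene on their strand. miR-190a-5p lies in an intron of Tln2 (chr9:67236700-67236721 on the minus strand), miR-7033-5p in an intron of Pom121 (chr5:135383783-135383805 on the minus strand) and miR-184-3p between Ankrd34c and Rasgrf1 (chr9:89802263-89802284 on the minus strand). miR-9-5p has 3 copies, of which the first is in an intron of Gm3764 (chr3:88215613-88215635 on the plus strand), miR-192-5p lies between Atg2a and Ehd1 (chr19:6264857-6264877 on the plus strand) and miR-671-3p in an exon of Chpf2 (chr5:24592171-24592191 on the plus strand).

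Under both scalings 53 miRNAs changed in the same direction, 42 of them higher and 11 lower in the corpus. A miRNA was called at an adjusted p under 0.05 (limma on log2(CPM + 1), Benjamini-Hochberg over the 321) and a fold change of 2 or more. Library size scaling called 72 of 321 (22.4%), 61 higher (19.0%) and 11 lower (3.43%), whereas TMM scaling called 91 (28.3%), 42 higher (13.1%) and 49 lower (15.3%). The 53 called under both were 16.5% of those tested, 13.1% higher and 3.43% lower, and 0 miRNAs were called in opposite directions. All 19 calls made by library size alone were higher and all 38 made by TMM alone were lower. The median log2 fold change of all 321 miRNAs was 0.47 under library size and -0.09 under TMM scaling, a shift that all values below carry. Because TMM scaling moved the fold changes down together, calls in opposite directions were nearly excluded in advance. The 42 higher calls under both were thus all the higher calls by TMM, and the 11 lower ones all the lower calls by library size. Agreement of the scalings is therefore not separate support for a call.

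Without caput library 2, 68 miRNAs were called under both scalings (40 higher and 28 lower), and without caput library 3, 41 were (35 higher and 6 lower). The count was 35 without caput library 1 and 30, 34 and 34 without corpus libraries 1, 2 and 3. Leaving out each of the 9 libraries in turn kept 23 of the 53 calls every time, 19 higher and 4 lower. The 321 miRNAs, chosen with all libraries, were the same in each of these fits. By level, 53 of the 321 reached a mean of 1000 CPM in a segment and 5 of those were called under both scalings, while 129 stayed under 50 CPM in both segments and 19 of those were. Of the 42 higher miRNAs, 18 were under 10 CPM in the caput, so they entered through their corpus level, and 4 of the 11 lower ones entered through their caput level.

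In single libraries, 94 miRNAs had all 3 corpus values above all 3 caput values (29.3%) and 18 had them all below (5.61%), and on the TMM scale 64 (19.9%) and 89 (27.7%) did. Of the 42 miRNAs called higher under both scalings, 40 did not overlap on either scale, and of the 11 called lower 8 did not.

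**Figure D1:**
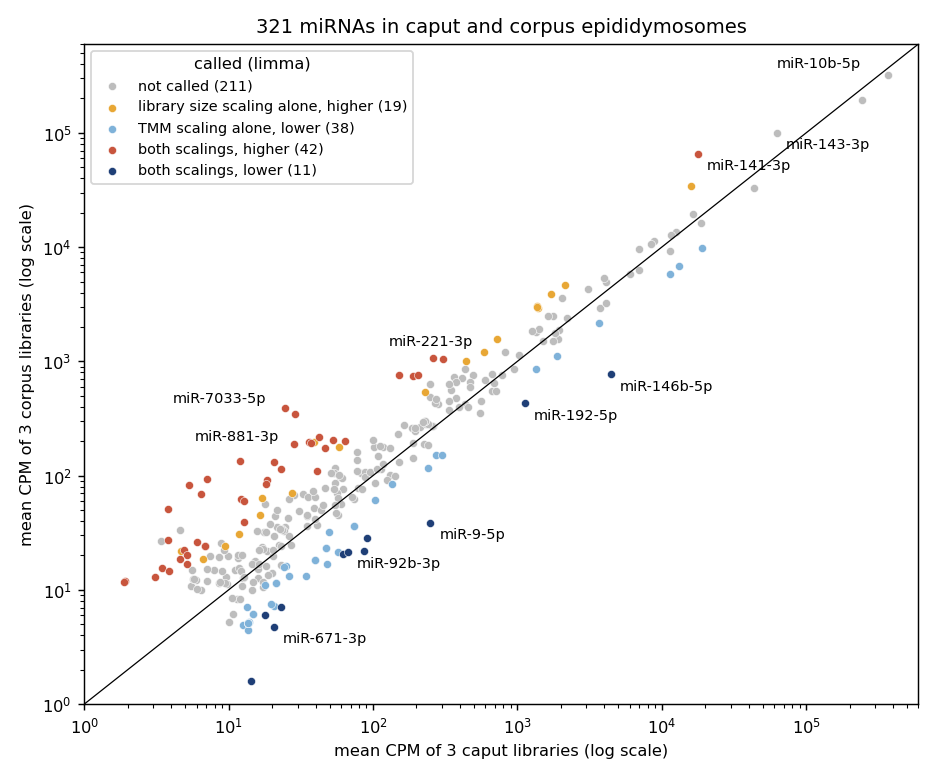
Mean CPM of each of the 321 miRNAs in the 3 caput libraries (x axis) and the 3 corpus libraries (y axis), both on log scales, with the line of equal CPM. Colours show the 42 higher and 11 lower miRNAs called under both scalings, the 19 called by library size alone and the 38 called by TMM alone; miR-141-3p is the only one of the 53 above 10000 CPM.

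Most of the change in read share lay in few miRNAs. miR-141-3p, an epithelial miRNA of the miR-200 family, took 1.95, 1.54 and 1.87% of the reads in the caput libraries and 6.62, 5.84 and 7.24% in the corpus libraries. The segments did not overlap, and its mean rose by 4.78 percentage points. It was called under both scalings, with a log2 fold change, given here and below ± its standard error, of 1.88 ± 0.22 under library size scaling (adjusted p = 7.59e-05) and 1.30 ± 0.24 under TMM scaling (adjusted p = 0.00401). miR-143-3p, which is abundant in smooth muscle, took 5.10, 4.98 and 8.81% of the reads in the caput libraries and 9.13, 8.79 and 12.1% in the corpus libraries. Caput library 3 lay within the corpus range, and with a log2 fold change of 0.70 (adjusted p = 0.0316) by library size and 0.13 (adjusted p = 0.715) by TMM miR-143-3p did not reach the 2-fold limit. The smooth muscle markers miR-143 and miR-145 (4 of 4 tested) summed to 50115 to 88995 CPM in caput pools and 88423 to 121412 CPM in corpus pools. By limma 0 of 4 were called (22.4% of all miRNAs by library size and 28.3% by TMM), with 1 at an unadjusted p under 0.05 by library size and 0 by TMM. The part of muscle in this gain was not tested. miR-141-3p and miR-143-3p made up 56.6% of all the share that was gained, which summed to 14.99 points.

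miR-30a-5p, of the broadly expressed miR-30 family, took 1.67, 1.14 and 2.02% of the reads in the caput libraries and 3.64, 3.23 and 3.46% in the corpus libraries. Each corpus library was above each caput library, and the log2 fold change was 1.14 by library size (adjusted p = 0.00460, limma) and 0.56 by TMM scaling, which is under the 2-fold limit. miR-26a-5p gained 0.327 points and miR-30d-5p 0.269 points, and neither was called under either scaling. The gain of miR-26a-5p was 0.0745 points without caput library 2, 0.600 without caput library 3 and 0.215 without corpus library 2.

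With all libraries the largest losses of share were in miR-10a-5p and miR-10b-5p, which lie among the Hox genes that pattern the body axis. miR-10b-5p took 38.4, 43.4 and 29.7% of the reads in the caput libraries and 32.3, 31.6 and 32.5% in the corpus libraries, and miR-10a-5p 24.8, 27.9 and 20.8% of the reads in the caput libraries and 20.9, 19.8 and 17.8% in the corpus libraries. The segments overlapped for both, caput library 3 being below every corpus library for miR-10b-5p, and the differences of the means were -5.03 points for miR-10a-5p and -5.005 points for miR-10b-5p. By limma 0 of 4 members of the miR-10 family were called under either scaling (22.4% of all miRNAs by library size and 28.3% by TMM). At an unadjusted p under 0.05 there were 0 of 4 by library size and 3 of 4 by TMM. The differences were -1.07 points for miR-148a-3p, -0.911 for miR-191-5p and -0.631 for miR-182-5p, and the 5 largest losses were 84.3% of all that was lost. The sizes and order of these losses changed with the caput libraries. Without caput library 2 the differences were -3.34 points for miR-10a-5p, -1.88 for miR-10b-5p and -1.95 for miR-148a-3p, and without caput library 3 they were -6.90, -8.74 and -0.229. The 53 called miRNAs held 2.58% of the caput reads and 7.49% of the corpus reads, and without miR-141-3p 0.791% and 0.925%.

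**Figure D2:**
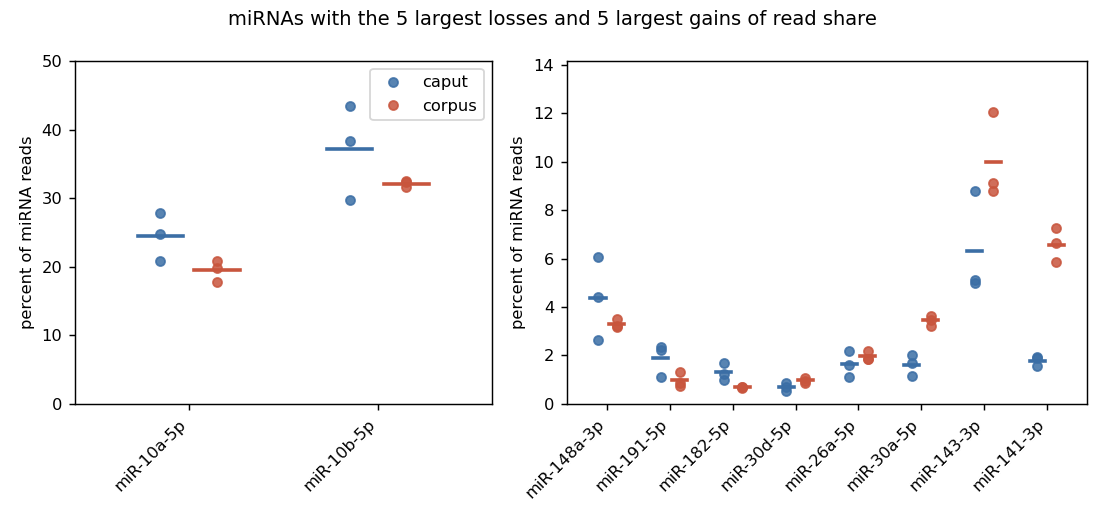
Percent of miRNA reads (y axis, from 0) in each caput and corpus library, as points with bars at the means, for the miRNAs with the 5 largest losses and 5 largest gains of read share; miR-10a-5p and miR-10b-5p have their own panel. The segments are apart for miR-141-3p and miR-30a-5p, while miR-10b-5p spans 29.7 to 43.4% in the caput around corpus values near 32.1%.

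The largest rises were of miRNAs that were scarce in the caput. miR-7033-5p was at 7.78, 17.5 and 48.6 CPM in the caput libraries and 122, 719 and 329 CPM in the corpus libraries. Its segments did not overlap, but corpus values spanned 122 to 719 CPM. Its log2 fold change was 3.94 ± 0.72 under library size scaling (adjusted p = 0.00130) and 3.39 ± 0.72 under TMM scaling (adjusted p = 0.00544). miR-196a-5p, whose copies lie in Hox clusters, was at 7.25, 2.42 and 6.39 CPM in caput pools and at 97.9, 58.4 and 91.1 CPM in corpus pools. miR-196b-5p, from an exon of Hoxa9, was at 7.61, 2.90 and 10.8 CPM in caput pools and at 100.5, 83.0 and 98.2 CPM in corpus pools. Both members of the miR-196 family, which is known to target Hox messages, thus rose together, by 13.7 and 12.9 times on the library size scale and 9.77 and 9.12 times on the TMM scale. Their adjusted p (limma) were 9.56e-05 and 7.98e-05 by library size and 0.000652 and 0.000332 by TMM. Both were under a mean of 10 CPM in the caput, so they entered through their corpus level.

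miR-190a-5p was at 20.1, 2.54 and 13.1 CPM in caput pools and 189.7, 96.0 and 119 CPM in corpus pools, with a log2 fold change of 3.68 ± 0.60 by library size and 3.18 ± 0.55 by TMM. miR-184-3p, a miRNA best known from the cornea and lens, was at 3.98, 4.47 and 2.96 CPM in caput pools and 58.5, 65.8 and 29.7 CPM in corpus pools. Every corpus library was above every caput library for both, and the adjusted p of miR-184-3p was 0.000468 and 0.00517. miR-6238 was at 5.13, 5.32 and 8.87 CPM in caput pools and 77.5, 37.2 and 91.1 CPM in corpus pools, and miR-3535 at 22.4, 32.5 and 32.1 CPM in caput pools and 128, 286 and 633 CPM in corpus pools. Like the miR-196 members, miR-184-3p and miR-6238 were under a mean of 10 CPM in the caput, so they entered through their corpus level. In a stricter test against a fold of 2, only miR-196a-5p, miR-196b-5p and, among the falls, miR-9-5p were called under both scalings.

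**Figure D3:**
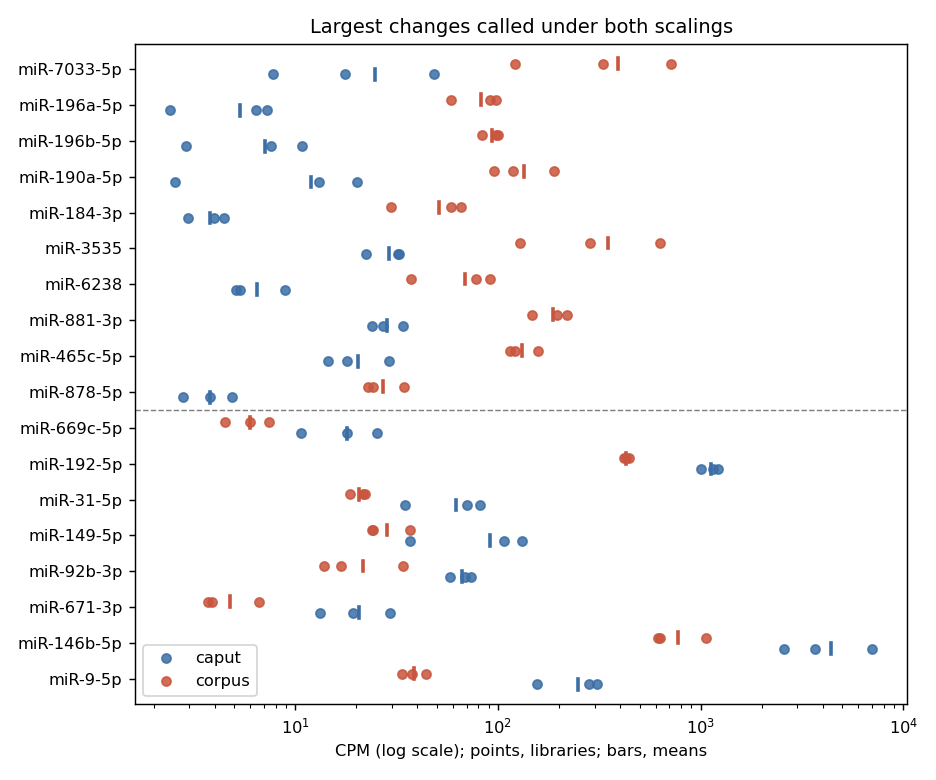
CPM on a log axis in each caput and corpus library (points, with bars at the means) for the miRNAs with the 10 largest rises and the 8 falls that were called under both scalings and did not overlap under either. Rises are above the dashed line and falls below it; miR-149-5p is the fall whose segments come closest.

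A cluster of miRNAs on the X chromosome rose as a group. These genes, which are best known from the testis and evolve fast in rodents, lie within chrX:66776757-66839125, between Slitrk2 and Gm1140. Of its 19 names, 15 were tested, 6 of which reached 10 CPM in both segments and 9 in the corpus alone, so that these 9 entered through their corpus level. All 15 tested members were called higher by library size and 13 of them by TMM scaling as well, and of the 6 that reached 10 CPM in both segments 6 and 4 were (19.0% and 13.1% of all miRNAs). The CPM of the 15 did not overlap between the segments, and nor did those of the 6 (29.3% of all miRNAs), and the median log2 fold change of the 15 was 1.89 by library size and 1.40 by TMM. Summed over the 15, the cluster was at 181 to 291 CPM in the caput libraries and 968 to 1112 CPM in the corpus libraries.

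Its most abundant member that was called under both scalings, miR-470-5p, was at 51.4, 74.6 and 33.2 CPM in caput pools and 169.9, 277 and 170.5 CPM in corpus pools. On the TMM scale its segments overlapped, and its log2 fold change was 1.97 by library size and 1.40 by TMM (adjusted p = 0.0458, limma). It was called under both scalings in 2 of the 9 fits that left out 1 library. miR-881-3p was at 34.1, 24.1 and 27.2 CPM in caput pools and 148, 196 and 219.6 CPM in corpus pools, which is 6.39 times higher by library size and 4.32 times by TMM. miR-465c-5p was at 28.9, 14.5 and 18.1 CPM in caput pools and 115, 121 and 158 CPM in corpus pools, and miR-878-5p at 4.86, 2.78 and 3.79 CPM in caput pools and 22.8, 24.3 and 34.2 CPM in corpus pools. These 3 were called in every fit that left out 1 library, as were miR-463-5p, miR-465a-5p and miR-743b-3p. Of these, miR-878-5p, miR-463-5p and miR-465a-5p entered through their corpus level, with caput means of 3.81, 1.91 and 3.43 CPM. The choice of tested miRNAs was not repeated in those fits. miR-871-5p and miR-883a-3p, with log2 fold changes of 1.82 and 1.88 by library size and 1.31 and 1.45 by TMM, completed the 13. miR-463-5p and miR-743a-3p rose from very few reads, at 39, 12 and 7 and 29, 11 and 15 reads in the caput libraries. miR-741-3p and miR-871-3p were called by library size alone, with TMM log2 fold changes of 1.29 and 1.05 (adjusted p = 0.112 and 0.0895).

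miR-465a-3p, miR-465b-3p and miR-465c-3p have the same mature sequence and the same or nearly the same CPM, so they are 1 measurement under 3 names. Their values were 7.52, 6.16 and 6.86 CPM in caput pools and 19.7, 35.2 and 18.1 CPM in corpus pools for miR-465a-3p. All 3 names were called under both scalings in 2 of the 9 fits that left out 1 library. Across the X chromosome as a whole 38 tested miRNAs were placed there and on no other chromosome. Of these 38, 17 were called higher by library size (19.0% of all miRNAs) and 15 under both scalings (13.1%), and 13 of the 15 are of the cluster. Of other miRNAs best known from male germ cells, by limma 0 of 6 members of the miR-34 and miR-449 family were called under either scaling (22.4% of all miRNAs by library size and 28.3% by TMM). At an unadjusted p under 0.05 there were 2 by library size and 1 by TMM. miR-34c-5p was at 798, 164 and 689 CPM in caput pools and 328, 381 and 342 CPM in corpus pools. A list of 20 male germ cell markers, 15 of them from the cluster, summed to 434 to 1170.5 CPM in caput pools and 1432 to 1587 CPM in corpus pools. Of the 20, 13 were called higher under both scalings (13.1% of all miRNAs), all of them in the cluster. These 13 include the 3 names of 1 measurement above and the cluster members that entered through their corpus level. The part of germ cells or sperm in the rise was not tested.

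The falls that held under both scalings were 11, and 4 of them (miR-9-5p, miR-146b-5p, miR-671-3p and miR-192-5p) were called in every fit that left out 1 library. miR-9-5p, best known from the nervous system, was at 310.0, 156 and 282 CPM in caput pools and 44.1, 37.6 and 33.6 CPM in corpus pools. Every caput library was far above every corpus library, and its log2 fold change was -2.61 ± 0.47 under library size scaling (adjusted p = 0.00114) and -3.19 ± 0.40 under TMM scaling (adjusted p = 0.000652). miR-192-5p, a miRNA of gut, liver and kidney epithelia, was at 1155, 1009 and 1213 CPM in caput pools and 417, 444 and 426 CPM in corpus pools. In CPM the replicates were close together in both segments, but the TMM factors of 0.753, 0.478 and 1.16 spread the caput values on the TMM scale. The log2 fold change of miR-192-5p was -1.39 ± 0.33 under library size scaling (adjusted p = 0.00735, limma) and -1.96 ± 0.26 under TMM scaling (adjusted p = 0.000652). The neuronal markers (3 of 4 tested) summed to 191 to 446 CPM in caput pools and 80.1 to 93.5 CPM in corpus pools. Of these, miR-9-5p and miR-138-5p were called lower under both scalings (3.43% of all miRNAs), miR-138-5p in 4 of the 9 fits that left out 1 library. miR-128-3p was not called, with log2 fold changes of 0.13 by library size and -0.41 by TMM. The part of nerve in the fall was not tested. miR-671-3p was at 19.3, 13.2 and 29.3 CPM in caput pools and 3.72, 6.66 and 3.87 CPM in corpus pools, with log2 fold changes of -1.88 by library size and -2.40 by TMM. It was under a mean of 10 CPM in the corpus, so it entered through its caput level.

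miR-31-5p was at 70.2, 34.8 and 81.3 CPM in caput pools and 22.0, 21.5 and 18.7 CPM in corpus pools, and miR-149-5p at 107, 37.0 and 131 CPM in caput pools and 36.8, 24.3 and 23.9 CPM in corpus pools. In both, caput library 2 lay closest to the corpus libraries, and their adjusted p by library size were 0.0281 and 0.0326. miR-669c-5p, of the large Sfmbt2 cluster, fell from 18.0, 10.6 and 25.2 CPM to 5.98, 7.44 and 4.52 CPM. miR-138-5p (114, 23.8 and 124 CPM in caput pools, 33.8, 17.2 and 14.9 CPM in corpus pools), miR-135a-2-3p and miR-879-5p were called as well, but their CPM overlapped between the segments. miR-879-5p had 11, 1 and 4 reads in the corpus libraries. miR-669c-5p, miR-135a-2-3p and miR-879-5p were under a mean of 10 CPM in the corpus, so they entered through their caput level.

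Ratios of relatives within a library do not depend on how libraries are scaled, and several of them differed between the segments. These pairs were chosen after their values had been seen, so they are described and not tested. miR-146b-5p, from a family known to restrain Toll-like receptor signalling, was at 2566, 7032 and 3679 CPM in caput pools and 617, 1067 and 629.6 CPM in corpus pools, while miR-146a-5p was at 125, 436 and 179 CPM in caput pools and 297, 687 and 474 CPM in corpus pools. There were 20.6, 16.1 and 20.5 reads of miR-146b-5p per read of miR-146a-5p in the caput libraries and 2.08, 1.55 and 1.33 in the corpus libraries, a difference of -3.54 in the mean log2 ratio. Only miR-146b-5p was called, with a log2 fold change of -2.44 ± 0.40 under library size scaling (adjusted p = 0.000487) and -3.02 ± 0.49 under TMM scaling (adjusted p = 0.00203), and miR-146a-5p had 1.10 and 0.52 (adjusted p = 0.106 and 0.532).

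miR-92a-3p and miR-92b-3p have the same seed and were called in opposite directions. miR-92a-3p, of the growth-promoting miR-17-92 cluster, was at 164, 107 and 182 CPM in caput pools and 895, 1086 and 302 CPM in corpus pools, and miR-92b-3p was at 68.9, 57.9 and 73.5 CPM in caput pools and 13.9, 34.1 and 16.8 CPM in corpus pools. The ratio of miR-92a-3p to miR-92b-3p was 2.38, 1.86 and 2.48 in the caput libraries and 64.4, 31.9 and 18.0 in the corpus libraries. The corpus libraries spread widely, yet each was above each caput library. The log2 fold change of miR-92a-3p was 2.16 ± 0.47 under library size scaling (adjusted p = 0.00407) and 1.59 ± 0.41 under TMM scaling (adjusted p = 0.0144), and that of miR-92b-3p -1.68 ± 0.47 under library size scaling (adjusted p = 0.0163) and -2.25 ± 0.41 under TMM scaling (adjusted p = 0.00384). Of its cluster mates from Mir17hg, miR-18a-5p was also called higher (11.8, 7.13 and 17.5 CPM in caput pools, 67.7, 22.7 and 98.2 CPM in corpus pools), whereas miR-17-5p, miR-19b-3p and miR-20a-5p had log2 fold changes of 0.43, 0.49 and 0.51 by library size and -0.14, -0.08 and -0.06 by TMM and were not called. miR-25-3p and miR-32-5p, with the same seed as miR-92a-3p, were not called either, at 1.01 and 0.91 by library size and 0.44 and 0.35 by TMM.

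miR-107-3p, which differs from miR-103-3p at 1 base near the 3' end and shares its place within pantothenate kinase genes, was at 213, 108 and 248 CPM in caput pools and 725, 824 and 697 CPM in corpus pools. The ratio of miR-107-3p to miR-103-3p was 0.256, 0.305 and 0.252 in caput pools and 0.419, 0.520 and 0.511 in corpus pools, and miR-107-3p was called under both scalings while miR-103-3p was called by library size alone (log2 fold change 1.23, and 0.65 by TMM with adjusted p = 0.0818). Reads that end before that base cannot tell these miRNAs apart, and how the authors' counting shared them is not given in the sources used here. For contrast, the ratio of miR-10a-5p to miR-10b-5p was 0.648, 0.643 and 0.700 in caput pools and 0.645, 0.627 and 0.547 in corpus pools, and that of miR-196b-5p to miR-196a-5p 1.05, 1.20 and 1.69 and 1.03, 1.42 and 1.08, and in both pairs the segments overlapped.

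**Figure D4:**
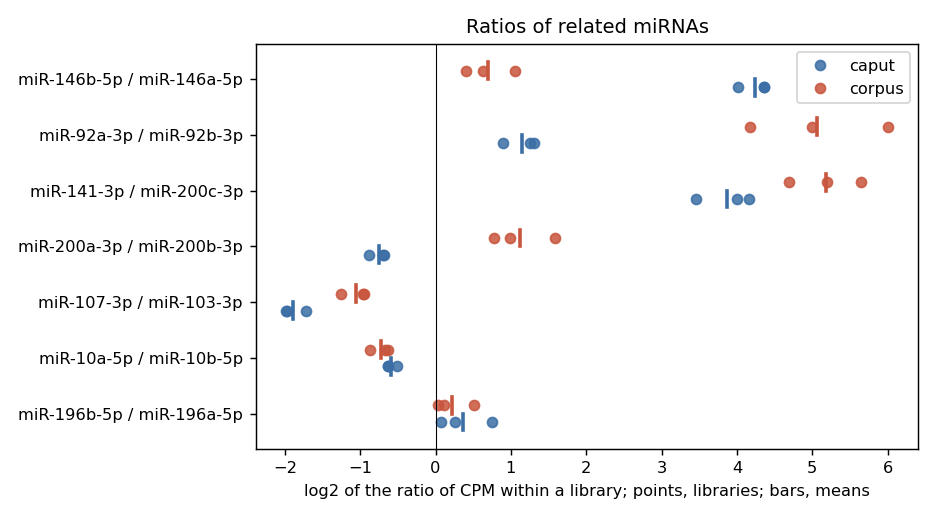
The log2 ratio of the CPM of related miRNAs within each caput and corpus library (x axis; points are libraries and bars are means of 3). The segments are apart for miR-146b-5p to miR-146a-5p, miR-92a-3p to miR-92b-3p, miR-141-3p to miR-200c-3p, miR-200a-3p to miR-200b-3p and miR-107-3p to miR-103-3p, and overlap for miR-10a-5p to miR-10b-5p and miR-196b-5p to miR-196a-5p.

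The miR-200 family, which keeps epithelial cells epithelial by holding down Zeb1 and Zeb2, was not called as a block. miR-141-3p and miR-200a-3p carry the seed AACACUG, and miR-200b-3p, miR-200c-3p and miR-429-3p the seed AAUACUG. miR-200a-3p was at 2528, 1147 and 2787 CPM in caput pools and 4565, 4429.8 and 4889 CPM in corpus pools, and miR-200b-3p, from the same transcript region, at 4676, 1862 and 4465 CPM in caput pools and 2661, 2239 and 1632 CPM in corpus pools. The ratio of miR-200a-3p to miR-200b-3p was 0.541, 0.616 and 0.624 in the caput libraries and 1.72, 1.98 and 2.99 in the corpus libraries. The ratio of miR-141-3p to its neighbour miR-200c-3p was 16.1, 17.8 and 10.9 in the caput and 36.5, 25.9 and 50.3 in the corpus. In both clusters the miRNA with the AACACUG seed thus stood higher against its neighbour in the corpus, without overlap between the segments. miR-200a-3p was called higher by library size alone (1.20, and 0.63 by TMM) and miR-200b-3p lower by TMM alone (-0.67, and -1.24 by TMM), while miR-200c-3p and miR-429-3p had 0.57 and 0.59 by library size and -0.01 and 0.01 by TMM. Of all 10 epithelial miRNAs tested, miR-203-3p and miR-205-5p included, only miR-141-3p was called under both scalings, where 13.1% of all miRNAs were called higher and 3.43% lower. miR-141-5p, the other arm of the miR-141 precursor, was at 72.1, 21.3 and 69.7 CPM in caput pools and 99.0, 83.8 and 74.3 CPM in corpus pools, and was not called.

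For 38 miRNAs the fall was called by TMM scaling alone. All 7 tested miR-467 members of the Sfmbt2 cluster, a large array of repeated hairpins in an imprinted gene active in the placenta, were called lower by TMM (15.3% of all miRNAs) and 0 of 7 by library size (3.43% of all miRNAs), where 2 of 7 had an unadjusted p under 0.05 (limma). Their median log2 fold change was -1.01 by library size and -1.53 by TMM, and their summed level was 132 to 380.2 CPM in caput pools and 85.2 to 136 CPM in corpus pools. Caput library 2 was the lowest of the caput libraries and lay within the corpus range. miR-467d-5p, with the largest TMM difference, was at 36.1, 17.8 and 49.7 CPM in caput pools and 11.1, 19.2 and 9.69 CPM in corpus pools. Of the miR-466 members 5 of 6, and of the miR-669 members 5 of 5, were called lower by TMM, beside the same 15.3% of all miRNAs. By library size 0 of the 6 were called, although 6 of 6 had an unadjusted p under 0.05 (limma), and 1 of the 5, which was miR-669c-5p. Of these 18 names, 5 pairs had the same values in all libraries, so the counts are of names and not of separate measurements. The 5 miR-466 names called lower also had nearly the same reads, so they are close to 1 measurement. Their reads were 144 to 157, 49 to 50 and 161 to 176 in the caput libraries and 29 to 32, 8 and 8 to 11 in the corpus libraries. The exception, miR-466i-5p, had log2 fold changes of 1.65 by library size and 1.18 by TMM and was not called.

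miR-204-5p, miR-211-5p and miR-375-3p were also called lower by TMM alone, 3 of 3 (15.3% of all miRNAs were called lower by TMM), with 1 of 3 at an unadjusted p under 0.05 by library size (limma). miR-204-5p was at 8465, 12950.4 and 13049 CPM in caput pools and 4027, 7369 and 5934 CPM in corpus pools, with a log2 fold change of -1.01 ± 0.40 under library size scaling (adjusted p = 0.0838) and -1.58 ± 0.42 under TMM scaling (adjusted p = 0.0156). Its segments did not overlap on the CPM scale, and nor did those of miR-375-3p, at 1368, 1093 and 1561 CPM in caput pools and 507, 973 and 1089 CPM in corpus pools. miR-182-5p and miR-183-5p, of a cluster known from sensory cells, were called lower by TMM alone, 2 of 4 with miR-96-5p and miR-183-3p not called. miR-182-5p was at 12437, 10055 and 16734 CPM in caput pools and 6450.2, 7037 and 6819.8 CPM in corpus pools, and missed the library size call by its fold (log2 fold change -0.92, adjusted p = 0.0242, limma). Of 6 tested strands that let-7 hairpins usually discard, let-7a-1-3p, let-7b-3p and let-7c-2-3p were called lower by TMM alone, beside 15.3% of all miRNAs called lower by TMM (let-7b-3p -1.34 by library size and -1.90 by TMM), whereas let-7i-3p was called higher under both scalings, at 10.8, 12.6 and 15.0 CPM in caput pools and 43.8, 35.6 and 39.4 CPM in corpus pools. let-7a-1-3p and let-7c-2-3p had the same reads in every caput and corpus library, so they are 1 measurement under 2 names.

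**Figure D5:**
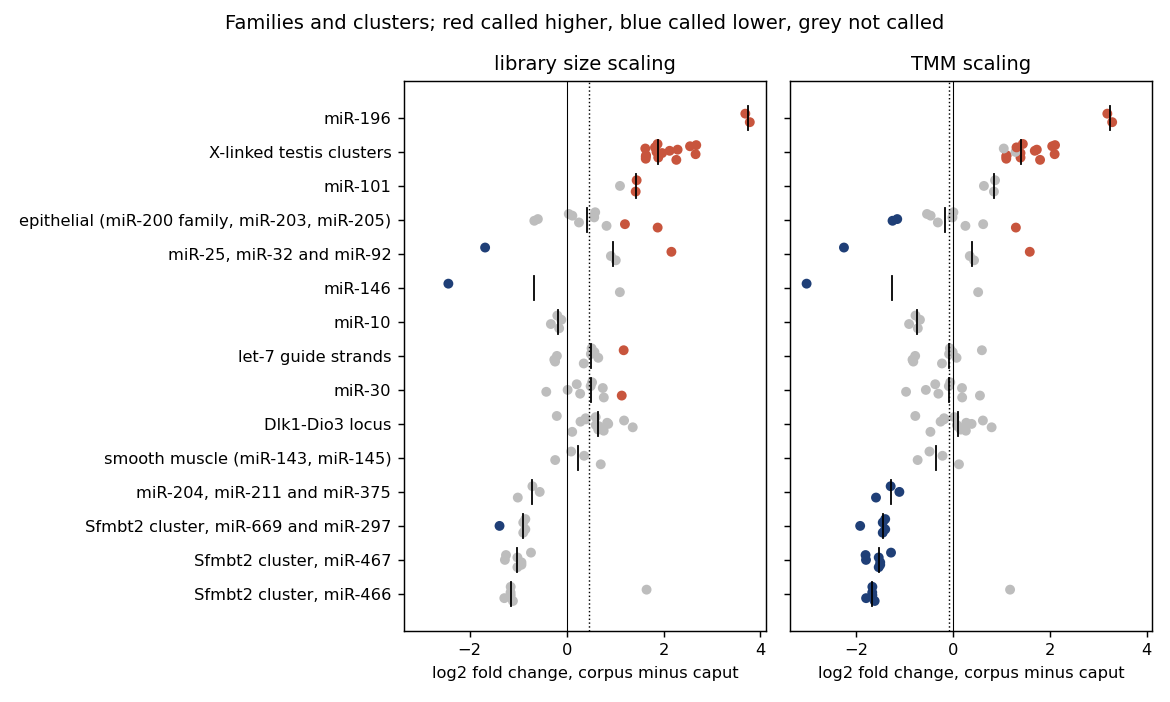
The log2 fold change from caput to corpus of each tested member (points) of 15 families, clusters and marker lists under library size scaling (left) and TMM scaling (right), with a bar at each median, a solid line at 0 and a dotted line at the median of all 321 miRNAs. miR-196 and the X-linked testis clusters stand to the right in both panels, and the Sfmbt2 cluster is called lower mainly in the right one.

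The calls made by library size alone were all rises. The largest were of miR-451a, the main miRNA of red blood cells, at 19.5, 21.5 and 76.1 CPM in caput pools and 72.2, 157 and 363 CPM in corpus pools, followed by miR-677-3p (1.87) and miR-741-3p (1.86). The log2 fold change of miR-451a was 2.29, and the part of blood in this rise was not tested. The red blood cell markers (3 of 5 tested) summed to 223 to 848 CPM in caput pools and 389.6 to 1106 CPM in corpus pools. The other 2 tested, miR-486a-5p and miR-486b-5p, had nearly the same reads in each library, so the sum holds 1 measurement under 2 names. They were not called, with log2 fold changes of 0.45 by library size and -0.13 to -0.12 by TMM. On the TMM scale the log2 fold changes of miR-451a, miR-677-3p and miR-741-3p were 1.73, 1.36 and 1.29, with adjusted p of 0.0671, 0.111 and 0.112 (limma). With a mean of 4.70 CPM in the caput, miR-677-3p entered through its corpus level. miR-101a-3p (1.43 by library size, 0.85 by TMM) and let-7i-5p (1.18 and 0.60) belong to this group too. Families with no call under either scaling (limma) included miR-99, miR-100 and miR-125 (0 of 9, with 0 at an unadjusted p under 0.05 by library size and 2 by TMM), miR-23, miR-24 and miR-27 (0 of 7, with 0 and 1), miR-181 (0 of 6, with 0 and 2) and the imprinted Dlk1-Dio3 locus (0 of 15, with 2 and 1). Over all miRNAs 22.4% were called by library size and 28.3% by TMM, and whether these families were steadier than others was not tested.

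Some of the rises were of entries that share letters with repeats or with other annotated transcripts, and they are shown for that reason. The last 3 are shown because they lie over small nucleolar RNA genes.
miR-3470b: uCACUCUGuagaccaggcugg
miR-1195: uGAGUUCGaggccagccugcuca
miR-3473a: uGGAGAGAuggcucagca
miR-3473b: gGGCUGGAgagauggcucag
miR-3473e: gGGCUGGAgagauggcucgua
miR-5128: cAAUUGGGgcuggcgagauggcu
miR-3535: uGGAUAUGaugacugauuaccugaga
miR-5121: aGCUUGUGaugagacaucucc
miR-677-5p: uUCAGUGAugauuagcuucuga

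The whole sequence of miR-3470b was present, in sense, in transcripts of 546 genes other than miRNA genes in GENCODE M21, that of miR-3473b in 343 and that of miR-3473a in 146. No other of the 268 tested miRNAs with a sequence reached 5 genes, and all of these 3 were called higher under both scalings. miR-3473a, miR-3473b, miR-3473e and miR-5128 share the letters GAGAUGGCU, which no other of the 268 holds and which occur, on either strand, in 0.874% of 32851 promoter windows of 300 bases. CAGGCUGG, shared by miR-3470b and by miR-1195 on the other strand, occurs in 4.30% of them. These letters resemble the B2 and B1 short interspersed elements, repeats with very many copies in the mouse genome.

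miR-3470b was at 99.2, 195 and 482 CPM in caput pools and 992, 1156 and 1032 CPM in corpus pools, with a log2 fold change of 2.32 ± 0.47 under library size scaling (adjusted p = 0.00291) and 1.75 ± 0.38 under TMM scaling (adjusted p = 0.00585). miR-3470a was at 84.9, 118 and 408 CPM in caput pools and 801, 739 and 742 CPM in corpus pools, and miR-3473b at 14.9, 35.3 and 76.7 CPM in caput pools and 188, 358 and 112 CPM in corpus pools. Caput library 3 was the highest caput library for each of them, and every corpus library was above it. miR-1195, miR-3473a, miR-3473e and miR-5128 were also called higher under both scalings, with log2 fold changes of 2.29, 2.37, 2.48 and 1.87 by library size and 1.75, 1.81, 1.92 and 1.39 by TMM. On the TMM scale the segments overlapped for miR-1195. Of these entries miR-5128 was under a mean of 10 CPM in the caput, so it entered through its corpus level.

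The mature sequences of 10 tested miRNAs lay over an annotated small nucleolar or small Cajal body RNA gene on the same strand, which for miR-677, miR-1839 and miR-3068 is the miRNA gene itself, and 3 of them, miR-3535, miR-5121 and miR-677-5p, were called higher under both scalings (13.1% of all miRNAs). miR-3535 lies within the Ncl gene (chr1:86352062-86352087 on the minus strand) and miR-5121 over Snord33 within Rpl13a (chr7:45126925-45126945 on the minus strand), genes that host small nucleolar RNAs, and miR-677-5p in an intron of Atp5b (chr10:128085291-128085312 on the plus strand). miR-5121 was at 26.7, 17.9 and 66.7 CPM in caput pools and 162, 159 and 256 CPM in corpus pools, and miR-677-5p at 41.5, 25.7 and 73.2 CPM in caput pools and 87.1, 147 and 294 CPM in corpus pools. The other 7 included miR-3068-3p, which was called lower by TMM alone (-0.70, and -1.27 by TMM), and miR-1839-5p, which was not called (0.86 and 0.28). Whether fragments of longer RNAs contributed to these entries was not tested.

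Each hairpin yields a 5p and a 3p arm, and their ratio within a library is likewise free of scaling. It was tested for 64 precursors with both arms measured, and 2 changed (3.12%), miR-221 and miR-152, both towards the 3p arm. miR-221-3p, a miRNA of vessels and dividing cells, was at 327, 184 and 406 CPM in caput pools and 1077, 866 and 1213 CPM in corpus pools, and miR-221-5p at 18.3, 9.18 and 15.9 CPM in caput pools and 17.6, 7.83 and 4.52 CPM in corpus pools. The log2 arm ratio of miR-221 changed by -2.50 ± 0.44 (SE, adjusted p = 0.00353, limma), with 109, 20 and 7 reads of miR-221-5p in the corpus libraries. miR-152-3p, a relative of miR-148a, was at 51.6, 43.3 and 98.4 CPM in caput pools and 194, 143 and 267 CPM in corpus pools, and its 5p arm at 37.6, 24.7 and 60.7 CPM in caput pools and 41.8, 43.5 and 26.5 CPM in corpus pools. The arm ratio of miR-152 changed by -1.76 ± 0.44 (adjusted p = 0.0443, limma). In both precursors the 3p arm was called higher under both scalings and the 5p arm was not called, and with both arms held to a mean of 50 CPM neither precursor was among the 20 left. Without caput library 1, caput library 3, corpus library 1, corpus library 3 or cauda library 2 there was 1 call, and without cauda library 3 there were 4. miR-222-3p, from the miR-221 cluster and with its seed, was at 150.3, 98.4 and 201 CPM in caput pools and 265, 233 and 192 CPM in corpus pools and was not called.

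Other rises under both scalings were of miR-708, where miR-708-5p (2.09 by library size, 1.63 by TMM) and miR-708-3p (1.75 and 1.32) moved together from an intron of Tenm4, of miR-709 (2.11 and 1.63), and of miR-218-5p, from the axon guidance genes Slit2 and Slit3 (1.65 and 1.10). Of these, miR-709 was called under both scalings in only 2 of the 9 fits that left out 1 library. Both arms of miR-708 and miR-709 were under a mean of 10 CPM in the caput, so they entered through their corpus level. miR-511-3p, from an intron of the macrophage gene Mrc1, was at 4.33, 1.93 and 9.23 CPM in caput pools and 17.4, 12.1 and 20.7 CPM in corpus pools, and miR-101c at 18.0, 3.26 and 17.0 CPM in caput pools and 44.6, 54.0 and 80.7 CPM in corpus pools. The sequence of miR-101c is contained in that of miR-101a-3p, and the 2 were at very different levels, with miR-101a-3p at 1788, 614 and 2708 CPM in the caput.

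Leukocyte markers (4 of 5 tested) summed to 231 to 530.0 CPM in caput pools and 515 to 1149 CPM in corpus pools. By limma 0 of 4 were called (22.4% of all miRNAs by library size and 28.3% by TMM), with 3 at an unadjusted p under 0.05 by library size and 0 by TMM. miR-223-3p, a myeloid marker, was at 27.8, 20.1 and 37.0 CPM in caput pools and 53.0, 76.8 and 73.0 CPM in corpus pools. It was among the 2 of the 4 whose CPM were higher in the corpus without overlap (29.3% of all miRNAs), and miR-142a-5p and miR-150-5p overlapped. miR-511-3p did not overlap either, but it is not on this list and entered through its corpus level. The part of leukocytes in these values was not tested. Striated muscle markers (1 of 5 tested) summed to 55.5 to 197 CPM in caput pools and 121 to 167 CPM in corpus pools, 0 were called, and miR-208b-3p and miR-133a-5p did not exceed 3 reads in any of the 6 libraries. Epididymosomes have no miRNA of their own to check the label by. The epithelial markers (10 of 10 tested) summed to 22174 to 34116 CPM in caput pools and 74447 to 85898 CPM in corpus pools, most of it miR-141-3p.

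In the cauda, the next segment, the members of this step had gone different ways, given here as values alone because a second step would share the corpus libraries. miR-196b-5p was at 1280.3, 1194 and 663 CPM in the cauda libraries, far above its corpus values, and miR-221-3p at 2545, 3089 and 1914 CPM. miR-141-3p was at 32901, 38547 and 49859 CPM, below all its corpus values and above all its caput values. miR-92a-3p, at 152, 181 and 164 CPM, and miR-3535, at 59.97, 88.3 and 52.2 CPM, were below all their corpus values, and miR-7033-5p, at 28.5, 29.3 and 128 CPM, overlapped with them. miR-31-5p, at 111, 88.8 and 53.9 CPM, was above its corpus values, and miR-146b-5p, at 273, 298 and 306 CPM, was below them.

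Among the 50 of the 53 called miRNAs with a mature sequence there were 43 different seeds, and 13 of the 50 shared a seed with another of them. Among the 268 tested miRNAs with a sequence there were 204 different seeds. GGAG, a motif described for miRNAs loaded into exosomes, was in 7 of the 40 higher miRNAs with a sequence (17.5%), in 0 of the 10 lower ones and in 22 of all 268 tested (8.21%), searched in the mature strand. CCCU, described with it, was in 0 of the 40, 0 of the 10 and 22 of 268 (8.21%). Of the 7 with GGAG, miR-3473a, miR-3473b and miR-3473e are among the entries with repeat-like letters. A match is a description of letters and not of a sorting site.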

How the data were processed

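Small RNA was sequenced from epididymosomes of 3 segments, with 3 libraries each, and RNA was pooled from several animals for each library, so p-values measure the spread between pools. The authors counted reads on miRNAs and deposited CPM in 1 table. Per the submitters' processing notes CASAVA 1.8.2 and Bowtie 1.1.1 were among the tools, and the genome build and miRNA annotation release are not given in the sources used here. All columns of values were used (0 were left out). Since the deposited unit is CPM, limma on log2 values was the main test in place of edgeR's quasi-likelihood test, which was not run. CPM values of each library were near whole multiples of what 1 read is worth, which gave the reads behind a value and the depth of each library.

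CPM were used as deposited (library size scaling) or divided by TMM factors, computed from the reads with trims of 0.3 of the log ratios and 0.05 of the levels. log2(CPM + 1) was fitted on all 9 libraries with limma 3.58.1 in R 4.3.3 (lmFit, and eBayes with trend), and p-values were adjusted by Benjamini-Hochberg over the 321 miRNAs. Fold changes on this scale understate those of low miRNAs. Arm ratios used a pseudocount of 0.5 CPM and were called at an adjusted p under 0.05 with no limit on the fold. The code of the fits was tried on simulated counts with a simpler spread and composition than these data, which bears on the code alone. A count of 3 reads, the most that a count of 0 allows, was 0.265 to 1.94 CPM. Other steps used Python 3.11.15, pandas 2.3.3, numpy 2.4.6 and matplotlib 3.10.9.

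The members and lists were chosen with earlier results of these data known. By rule the text names the largest changes without overlap, the most abundant miRNAs, the largest shifts of read share, the called members of each list or else its largest and most abundant member, the arm ratios called, and the 3 largest changes called under 1 scaling alone. Other miRNAs were named after their values were seen. Sequences were taken from RefSeq (GRCm38.p6), and gene places from GENCODE M21 on the same build.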

Additional observations from a re-analysis of the deposited data

How the results depend on the processing

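Counts of calls among the 321 miRNAs stayed within 1.5 times those reported under each alternative run, except where the values below say otherwise. With library size, TMM and both scalings in that order, 72, 91 and 53 miRNAs were called as reported, 71, 92 and 50 by limma-voom on the reads, and 61, 89 and 47 with the 6 caput and corpus libraries alone. Of 2439 alternative values of the named miRNAs, 2121 kept direction and call, 314 lost the call, 2 gained it and 2 changed sign. These 2 were of miR-143-3p on the TMM scale, which was called under no alternative there and ranged from -0.00744 without corpus library 3 (-0.00273 without caput library 1) to 0.41 without caput library 2. None of the 2080 values of miRNAs called under both scalings changed sign. These miRNAs had been chosen for a fold of 2 or more in the same libraries, so a change of sign was unlikely in advance. The 2080 hold each name under each scaling, so they are not separate measurements.

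Choices that moved counts by over 1.5 times were these. With a filter of 50 CPM, library size called 7 lower, TMM 48 (27 higher, 21 lower), both scalings 34 (27 and 7) and the arm ratios 0 (0 lower). With a pseudocount of 10 CPM TMM called 59 (27 higher, 32 lower) and both scalings 27 higher. With an adjusted p under 0.1, library size and both scalings each called 17 lower. In a test against a fold of 2, library size called 11 (9 and 2), TMM 4 (2 and 2) and both scalings 3 (2 and 1). Lower calls by library size became 49 by TMM, 46 by median-of-ratios and 37 without miR-10a-5p and miR-10b-5p in the library totals.

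Leaving out each library in turn gave 45 to 100 calls by library size (40 to 94 higher, 5 to 28 lower), 65 to 92 by TMM (25 to 43 higher, 38 to 50 lower), 30 to 68 under both scalings (25 to 42 higher, 5 to 28 lower) and 1 to 4 arm ratios (0 to 1 higher, 1 to 3 lower). Calls under both scalings were 35 without caput library 1 and 30, 34 and 34 without corpus libraries 1, 2 and 3, the deepest of which, corpus library 1, also took library size to 45. Under both scalings 25 and 27 were higher without corpus libraries 1 and 2, and 28 were lower without caput library 2, against 5 to 7 without caput library 1, caput library 3, any corpus library or cauda library 2, the same numbers as by library size. Library size called 94 higher without caput library 3. In the arm ratios 1 was called without caput library 1, caput library 3, corpus library 1, corpus library 3 or cauda library 2, and 4 without cauda library 3. The causes were not tested.

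Replicate numbers are shared by the segments, but the labels do not say whether same-numbered pools belong together. The deviations of same-numbered caput and corpus libraries correlated at r = 0.45, 0.41 and -0.02. Those of caput library 1 with corpus library 2 and of caput library 2 with corpus library 1 correlated at -0.47 and -0.40. The other pairs ranged from -0.10 to 0.10. These values do not settle the pairing, and the main fits used no block. With a replicate block 83, 94 and 56 miRNAs and 3 arm ratios (1 higher) were called, and with the block on the 6 libraries alone, an alternative chosen after seeing the data, 80, 98 and 59. edgeR's quasi-likelihood test was not run, and limma-voom on the reads stands in its place. The differences in read share with 1 library left out, given above, were also chosen after seeing the data. Depth limits the corpus most, where 10 CPM stood for 15.5 reads in the shallowest library.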
